A study of Mus musculus with 6 samples.

Results

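The genes described here drive and mark cell division. A list of 43 cell cycle and mitosis genes was looked up by symbol in the array annotation, and each gene is represented by its brightest probe set, judged by the mean of the 6 arrays. Of these, 41 were measured: 18 of 18 genes of G1/S and DNA replication, 22 of 23 genes of G2 and mitosis (G2/M), and 1 of 2 inhibitors of cyclin-dependent kinases. Ccnb1 had no probe set under its symbol, and the probe set of Cdkn1a carried several symbols, so neither is reported. The measured genes belong to a set of 19938 genes with a symbol of their own, of which the brighter 9969, with a mean log2 signal of 5.87 or more, passed a filter on dim genes. That filter was passed by 39 members, while Ccne2 and Cdc25c lay just under it. Counts over the members below include all measured members, and counts over all genes use the 9969.

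Total RNA of 3T3-L1, a clonal mouse fibroblast line that can be made to form adipocytes, was hybridised to Affymetrix whole-transcript arrays, with 1 array for each of 6 conditions. The title of the series places the study in purinergic signalling by adenine. Differentiated adipocytes had been given 0.5 mM AICAR, 0.5 mM adenine or no compound (control) during 3 days of induction with IBMX, insulin and dexamethasone, and then spent 3 days in insulin medium without the compound. Undifferentiated fibroblasts had been given 0.5 mM AICAR, 0.5 mM adenine or no compound for 3 days, with the compound present to the end of that time. Adipocytes were kept in 10% fetal bovine serum and fibroblasts in 10% calf serum. Cells were grown to confluence before induction, and the density of the fibroblasts is not given in the sources used here. Cell state, serum, hormones and time in culture therefore cannot be told apart in a comparison of adipocytes with fibroblasts. AICAR is a ribonucleoside that cells phosphorylate to a mimic of AMP, an activator of AMP-activated protein kinase. Adenine is a free purine base that is salvaged to AMP.

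The cell cycle is driven by cyclins, which bind and switch on cyclin-dependent kinases, and is ordered by waves of transcription. E2F factors drive the genes of G1/S and replication once the retinoblastoma protein has been phosphorylated, and the B-MYB, FOXM1 and DREAM/MuvB complexes govern the genes of G2 and mitosis, which are repressed in resting cells. Confluent 3T3-L1 cells are known to re-enter the cycle for a short time after induction, the mitotic clonal expansion, before they stop dividing and store lipid.

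Because each condition had a single array, the differences reported between arrays carry no replicate check, and the spread between cultures is unknown. The medians of the 6 arrays over all probe sets lay between 5.41 and 5.49. In the only fit with residual degrees of freedom, an additive limma model of state and medium over the 6 arrays, 8 of 9 adipocyte markers rose in adipocytes, with Lpl as the exception. Their summed signal lay between 13.90 and 14.90 (log2 of the sum) on the adipocyte arrays and between 11.89 and 12.26 on the fibroblast arrays. The 8 fibroblast and preadipocyte markers summed to between 13.30 and 14.41 on the adipocyte arrays, lowest with adenine, and to between 14.55 and 14.94 on the fibroblast arrays. The adipocyte arrays therefore still carried strong fibroblast marker signal. In bulk RNA, fewer cycling cells and less cell cycle RNA per cell cannot be told apart.

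Promoter sequence from RefSeq GRCm38.p6 is shown for 4 genes chosen by their AICAR minus control difference in fibroblasts: the pair of G1/S and replication genes and the pair of G2/M genes with the lowest difference among the members with an entry in the promoter table. Each run is the 250 bases before the start used in the promoter table, written 5′ to 3′ on the gene's strand. Capitals mark matches, on either strand, to the cell cycle homology region core TTTGAA, the E2F site core GGCGGGA and the NF-Y box CCAAT. Rrm2 (chr12:24708004-24708253, plus strand) and Rrm1 (chr7:102441445-102441694, plus strand) encode the subunits of ribonucleotide reductase. Ccnb2 (chr9:70421555-70421804, minus strand) encodes a mitotic cyclin, and Kif23 (chr9:61946800-61947049, minus strand) a kinesin of the central spindle. The RefSeq gene of Kif23 reaches to position 61946810, so the end of its run, with its NF-Y box, lies within the gene.
Rrm2: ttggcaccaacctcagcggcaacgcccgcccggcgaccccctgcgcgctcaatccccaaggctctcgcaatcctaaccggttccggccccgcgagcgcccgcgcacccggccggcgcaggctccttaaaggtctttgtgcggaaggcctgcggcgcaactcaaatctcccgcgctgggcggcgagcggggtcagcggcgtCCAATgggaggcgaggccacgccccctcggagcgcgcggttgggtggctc
Rrm1: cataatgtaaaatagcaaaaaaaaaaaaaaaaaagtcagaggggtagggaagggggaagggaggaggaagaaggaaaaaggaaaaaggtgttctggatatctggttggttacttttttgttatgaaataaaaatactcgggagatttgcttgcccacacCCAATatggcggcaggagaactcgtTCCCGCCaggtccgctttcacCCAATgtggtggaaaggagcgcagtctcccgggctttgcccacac
Ccnb2: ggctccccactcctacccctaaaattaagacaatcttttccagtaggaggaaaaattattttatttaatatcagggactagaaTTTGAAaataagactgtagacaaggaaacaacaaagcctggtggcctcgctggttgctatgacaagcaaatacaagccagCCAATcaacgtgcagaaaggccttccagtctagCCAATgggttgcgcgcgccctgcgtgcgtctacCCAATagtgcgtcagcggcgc
Kif23: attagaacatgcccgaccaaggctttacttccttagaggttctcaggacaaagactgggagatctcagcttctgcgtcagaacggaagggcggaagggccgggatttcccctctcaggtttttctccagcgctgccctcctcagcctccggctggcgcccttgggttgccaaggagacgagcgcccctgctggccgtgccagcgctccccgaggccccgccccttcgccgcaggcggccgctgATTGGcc

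Rrm2 held 1 NF-Y box, and Rrm1 held 1 E2F core and 2 NF-Y boxes. Ccnb2 held 1 cell cycle homology core and 3 NF-Y boxes, and Kif23 held 1 NF-Y box. Among the members with a window, the NF-Y box was present in 9 of 15 G1/S and replication genes (60%) and in 14 of 16 G2/M genes (87.5%), and in 34.5% of the 27025 promoters in the table. The cell cycle homology core was present in 1 of 15 G1/S and replication genes (6.67%) and in 6 of 16 G2/M genes (37.5%), and in 16.3% of all promoters. These 6 G2/M genes also held an NF-Y box, a pair found in 5.73% of all promoters. The E2F core was present in 4 of 15 (26.7%) and 4 of 16 (25%), and in 9.76% of all promoters. A match is a run of letters and not a shown binding site, and no match says only that these letters are not in the window.

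All 22 G2/M genes were lower in fibroblasts given AICAR than in control fibroblasts. Their median log2 difference was -0.85, with values between -1.55 for Ccnb2 and -0.13 for Tpx2, and the median over all genes was -0.03. Of all genes, 52.5% were below 0 and 47.5% above. At least 2-fold lower were 8 of the 22, and 3.69% of all genes. The 18 G1/S and replication genes had a median of -0.34, with 14 lower and 4 higher, and 1 of them was at least 2-fold lower. All 22 G2/M genes and 11 of the 18 G1/S and replication genes had the lowest of the 3 fibroblast values with AICAR, as did 45.8% of all genes. Over all 6 arrays, the 22 G2/M genes and 9 of the 18 were lowest on that same fibroblast AICAR array, which held the lowest value of 29.4% of all genes.

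**Figure D1:**
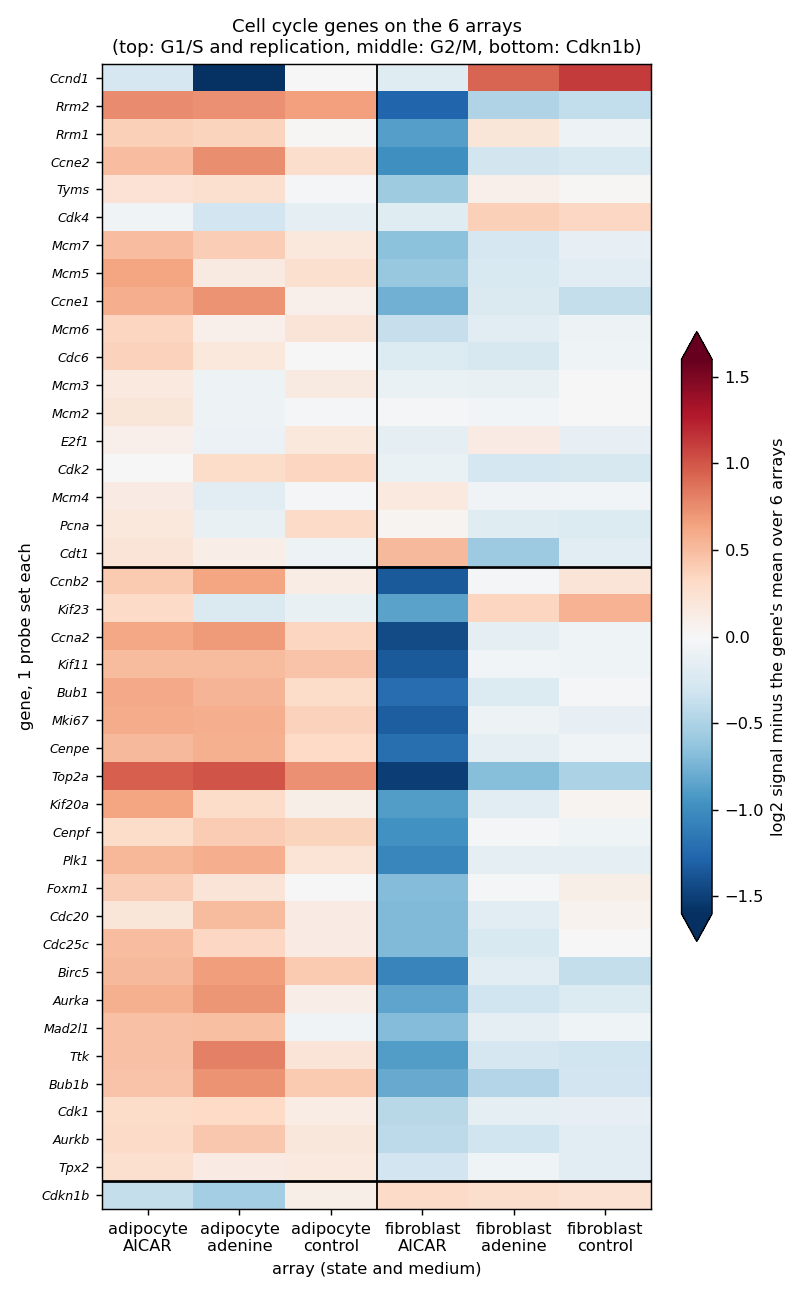
Log2 signal of each of the 41 measured genes on the 6 arrays (columns, by state and medium), as the difference from that gene's mean over the arrays. Rows are grouped as G1/S and replication, G2/M, and Cdkn1b, and ordered by the AICAR difference in fibroblasts. The fibroblast AICAR column is the lowest for all 22 G2/M genes, and Ccnd1 is lowest in the adipocyte adenine column.

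Leukocyte marker signal stood highest on the same array. The 5 measured markers of 6 summed to 8.08 (log2 of the sum) in fibroblasts with AICAR, to 7.12 with adenine and 7.16 in control fibroblasts, and to between 7.03 and 7.24 on the adipocyte arrays. Cd68, a lysosomal protein abundant in macrophages, carried this at 7.44 with AICAR, against 5.95 in control fibroblasts. Ptprc, the common leukocyte antigen, was at 4.21 with AICAR and 4.24 in control fibroblasts, and Adgre1 was at 3.78 and 3.58. Endothelial markers summed to between 6.68 and 6.91 and epithelial markers to between 7.17 and 7.41 over the 6 arrays. The 9 reference genes had a median difference of -0.15 between AICAR and control fibroblasts, with 3 higher and 6 lower. Of the 8 fibroblast and preadipocyte markers, 5 were lower with AICAR, with a median log2 difference of -0.49, and 3 were at least 2-fold lower: Dlk1 (-2.45), Thy1 (-1.19) and Col3a1 (-1.17). Of the 9 adipocyte markers, 6 were higher, with a median of 0.24, led by Fabp4 (1.65) and Pparg (0.96). The part of these signals in the cell cycle result was not tested.

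The mitotic cyclins were among the genes with the widest gap between AICAR and control fibroblasts. Ccnb2, a partner of Cdk1 in mitosis, was measured at log2 6.56 in fibroblasts with AICAR, 7.88 with adenine and 8.10 in control fibroblasts. That put AICAR 2.92-fold below control. In adipocytes Ccnb2 stood at 8.31 with AICAR, 8.53 with adenine and 8.02 in the control, so that adipocyte and fibroblast controls were nearly level. Ccna2, the cyclin of S phase and G2, was 7.28 in fibroblasts with AICAR, 8.56 with adenine and 8.65 in the control, a 2.59-fold lower signal with AICAR. Its adipocyte values were 9.33 with AICAR, 9.40 with adenine and 9.06 in the control, all above the 3 fibroblast values. Cdk1, the kinase that these cyclins switch on, differed in the same direction by less, with 7.11 in fibroblasts given AICAR, 7.41 with adenine and 7.42 in the control. Cdc25c, a phosphatase that removes inhibitory phosphates from Cdk1, was at 4.86 with AICAR, 5.33 with adenine and 5.57 in control fibroblasts, near or below the middle of each array. Cdc20, which targets mitotic cyclins for breakdown by the anaphase-promoting complex, was at 6.10 with AICAR, 6.62 with adenine and 6.86 in control fibroblasts. In all 5 of these genes the AICAR fibroblasts were lowest and the control fibroblasts highest of the 3.

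Plk1, a mitotic kinase that acts at centrosomes and kinetochores, differed more than the Aurora kinases. It stood at 6.77 in fibroblasts with AICAR, against 7.68 both with adenine and in the control, and at 8.35, 8.40 and 8.04 in adipocytes with AICAR, adenine and no compound. Aurka, the centrosomal Aurora kinase, was 6.47 in AICAR fibroblasts, 6.99 in adenine fibroblasts and 7.10 in control fibroblasts. Aurkb, the Aurora kinase of the chromosomal passenger complex, was 7.11, 7.21 and 7.35 in the same media, a difference of only -0.24 between AICAR and control. Birc5, or survivin, a partner of Aurkb in that complex, was 5.45 in AICAR fibroblasts, 6.34 in adenine fibroblasts and 6.12 in control fibroblasts. Birc5 was thus lower with AICAR by 0.68, more than its kinase partner. Tpx2, the spindle protein that activates Aurka, had the smallest difference of the group, with 8.35 in AICAR fibroblasts, 8.58 in adenine fibroblasts and 8.48 in the control.

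The spindle checkpoint genes hold back anaphase until chromosomes are attached. Bub1, a kinetochore kinase of the checkpoint, stood at 5.67 in fibroblasts with AICAR, 6.67 with adenine and 6.87 in the control, and lay between 7.18 and 7.49 on the 3 adipocyte arrays. Its paralogue Bub1b differed by less, with 6.15 in AICAR fibroblasts, 6.49 in adenine fibroblasts and 6.65 in control fibroblasts. Mad2l1, the inhibitor of Cdc20, had values of 8.04, 8.59 and 8.66 in the same order. Ttk, the kinase that recruits checkpoint proteins, was at 5.39 with AICAR, 6.01 with adenine and 5.97 in control fibroblasts. The 4 genes were lower with AICAR by between 0.51 and 1.20.

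Motor and centromere genes followed the cyclins closely. Kif11, the motor that pushes spindle poles apart, was 5.48 in fibroblasts with AICAR, 6.79 with adenine and 6.75 in control fibroblasts. Kif23, a motor of cytokinesis, was 5.97 in fibroblasts with AICAR, 7.17 with adenine and 7.38 in the control, a 2.66-fold lower signal with AICAR. Kif23 differed from the rest of the group in adipocytes, where it stood at 7.14 with AICAR, 6.59 with adenine and 6.71 in the control, so that without AICAR it was lower in adipocytes than in fibroblasts. Kif20a, another cytokinesis motor, was 7.47 in AICAR fibroblasts, 8.20 in adenine fibroblasts and 8.40 in the control. Cenpe, a kinetochore motor, was 5.59 in AICAR fibroblasts, 6.65 in adenine fibroblasts and 6.73 in the control. Cenpf, a large kinetochore protein, was 5.15 in AICAR fibroblasts, 6.11 in adenine fibroblasts and 6.06 in control fibroblasts. For each of these 5 genes the adenine and control fibroblasts lay close together and the AICAR array stood well below both.

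Mki67, which encodes the proliferation marker Ki-67, was 6.92 in fibroblasts with AICAR, 8.16 with adenine and 8.11 in control fibroblasts. In adipocytes it was 8.83 with AICAR, 8.82 with adenine and 8.61 in the control. Top2a, the topoisomerase that untangles chromosomes, was 6.93, 7.75 and 7.93 in fibroblasts with AICAR, adenine and no compound, and 9.39, 9.44 and 9.16 in adipocytes in the same media. The state gap of Top2a was wide in every medium. A second, dimmer Top2a probe set put AICAR below control by a log2 difference of -1.98 in fibroblasts, where the one used lay at the 2-fold threshold, and showed no gap between control adipocytes and control fibroblasts (-0.03, against 1.24 for the one used). Foxm1, a transcription factor of the G2/M wave, stood at 6.19 in AICAR fibroblasts, 6.87 in adenine fibroblasts and 6.98 in the control. AICAR minus control in fibroblasts was -0.79 for Foxm1, within the range of the G2/M genes, from -1.55 for Ccnb2 to -0.13 for Tpx2. The part of Foxm1 in the values of the other genes was not tested.

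The G1/S and replication genes did not move as a block. Ccnd1, cyclin D1, the mitogen-induced partner of Cdk4, was the only one of the 18 at least 2-fold lower with AICAR in fibroblasts. Its values were 8.66 with AICAR, 9.78 with adenine and 9.97 in the control, a 2.48-fold lower signal with AICAR. Cdk4 itself was at 10.98 with AICAR, 11.55 with adenine and 11.50 in control fibroblasts. Ccne1, cyclin E1, which takes cells into S phase with Cdk2, was at 7.03 with AICAR, 7.57 with adenine and 7.42 in the control, and the dimmer Ccne2 at 4.86, 5.55 and 5.60. Cdk2 was slightly higher with AICAR, at 8.17, against 7.99 with adenine and 8.02 in control fibroblasts. E2f1, the activator of this wave, stood at 7.33 with AICAR, 7.62 with adenine and 7.35 in the control, so AICAR and control were level.

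Replication origins are licensed by Cdc6 and Cdt1, which load the Mcm2 to Mcm7 helicase. Cdt1 was the one member clearly higher with AICAR, at 7.98 in AICAR fibroblasts, 6.88 in adenine fibroblasts and 7.30 in control fibroblasts. Cdc6, its partner, was close to level at 5.78, 5.74 and 5.93. The helicase subunits split. Mcm7 was lower, at 7.43 in AICAR fibroblasts, 7.83 in adenine fibroblasts and 7.96 in the control, and Mcm5 was lower at 6.96, 7.33 and 7.40. Mcm6 was lower by 0.29 in AICAR fibroblasts, Mcm3 by 0.09 and Mcm2 by 0.03, while Mcm4 was higher by 0.20. Pcna, the sliding clamp of DNA polymerases, was higher by 0.26 with AICAR, and by 0.29 in its second probe set. The 6 subunits of one ring-shaped helicase thus spanned log2 differences between -0.52 and 0.20.

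Nucleotide synthesis genes were lower. Rrm2, the S phase-limited small subunit of ribonucleotide reductase, was 6.54 in fibroblasts with AICAR, 7.33 with adenine and 7.41 in control fibroblasts. In adipocytes it was nearly flat at 8.56 with AICAR, 8.54 with adenine and 8.46 in the control. Rrm1, the large subunit, was 8.01 in AICAR fibroblasts, 9.08 in adenine fibroblasts and 8.81 in control fibroblasts. Tyms, thymidylate synthase, was 6.94, 7.59 and 7.53 in the same media. The 3 genes were lower with AICAR by 0.88, 0.80 and 0.59, each on the log2 scale.

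In adipocytes, AICAR values stood slightly above control. The G2/M genes had a median log2 difference of 0.25, with 21 of 22 higher and Cenpf the 1 lower, and the G1/S and replication genes had a median of 0.18, with 14 of 18 higher. The median over all genes was -0.01, with 47.4% above 0 and 52.6% below. No member was 2-fold different in either direction, as were 0.612% (higher) and 0.381% (lower) of all genes. The second, dimmer Top2a probe set was above 2-fold in this comparison (1.06), where the one used gave 0.23. The highest values were Kif20a at 0.54, Mad2l1 at 0.53 and Ccne1 at 0.50. Lower with AICAR in fibroblasts and higher with AICAR in adipocytes were 21 of the 22 G2/M genes, 12 of the 18 G1/S and replication genes, and 26.7% of all genes. The difference between the states was not tested, and the adipocytes had been without AICAR for 3 days when fibroblasts still had it.

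**Figure D2:**
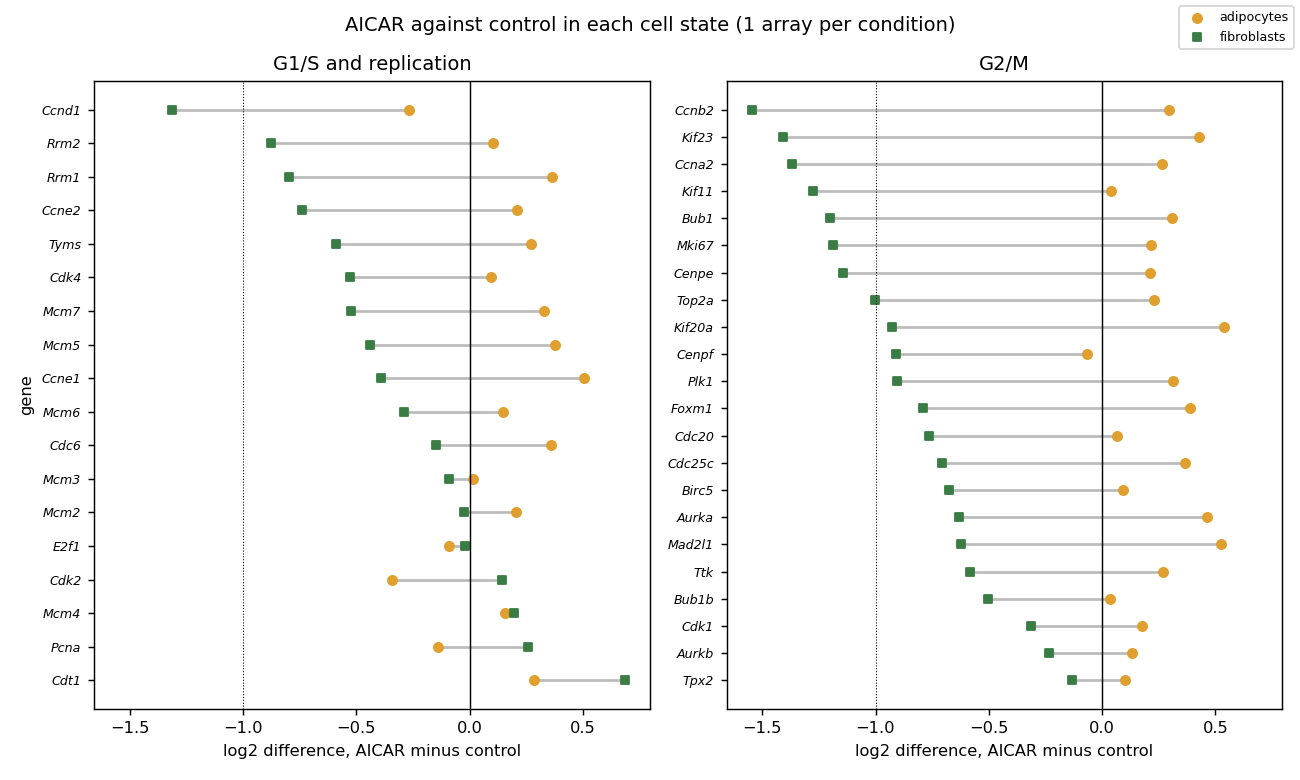
Log2 difference of AICAR minus control for each gene in adipocytes (circles) and in fibroblasts (squares), with 1 array per condition and the dotted line at 2-fold lower. In the G2/M panel every square lies left of 0, between -1.55 and -0.13, and 21 of 22 circles lie right of 0. In the G1/S and replication panel 14 of 18 squares lie left of 0.

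With adenine at the same dose, fibroblast values lay close to control. The G2/M genes had a median log2 difference of -0.10, with 16 lower and 6 higher, and the G1/S and replication genes a median of -0.04, with 12 lower and 6 higher. The median over all genes was -0.01, with 47.8% above 0 and 52.1% below. No member reached 2-fold, in a comparison where 0.0802% of all genes were higher and 0.0502% lower by that much. The members spanned -0.42 for Cdt1 to 0.28 for Rrm1. Both compounds are compared with the same control array in each state, so their differences from control are not independent.

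In adipocytes, adenine went with slightly higher G2/M values and a low Ccnd1. The G2/M genes had a median log2 difference of 0.25, with 20 of 22 higher, against a median of 0.02 over all genes, of which 52.5% were above 0 and 47.5% below. Their highest values were Ttk and Aurka at 0.60, Mad2l1 at 0.54 and Ccnb2 at 0.52. The G1/S and replication genes had a median of -0.05, with 8 higher and 10 lower, and the median turned to 0.02 when arrays were centred on their medians. Within these 18, the cyclins ran opposite ways. Ccnd1 was measured at 7.27 in adipocytes with adenine, 8.58 with AICAR and 8.85 in the control, its lowest value on the 6 arrays, and was the 1 member at least 2-fold lower (-1.57), as were 2.4% of all genes. Ccne1 was higher, at 8.53 with adenine, 8.39 with AICAR and 7.89 in the control, and Ccne2 stood at 6.58, 6.33 and 6.11. Pcna was lower by 0.43 and E2f1 by 0.27. Marker genes differed in the same comparison. All 8 fibroblast and preadipocyte markers were lower with adenine, with a median of -1.58 and 6 at least 2-fold lower, and all 9 adipocyte markers were higher, 5 of them at least 2-fold. Their part in the cell cycle values was not tested. Of the 3 adipocyte values, the control was the lowest for 19 of 22 G2/M genes, 8 of 18 G1/S and replication genes and 33.4% of all genes.

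**Figure D3:**
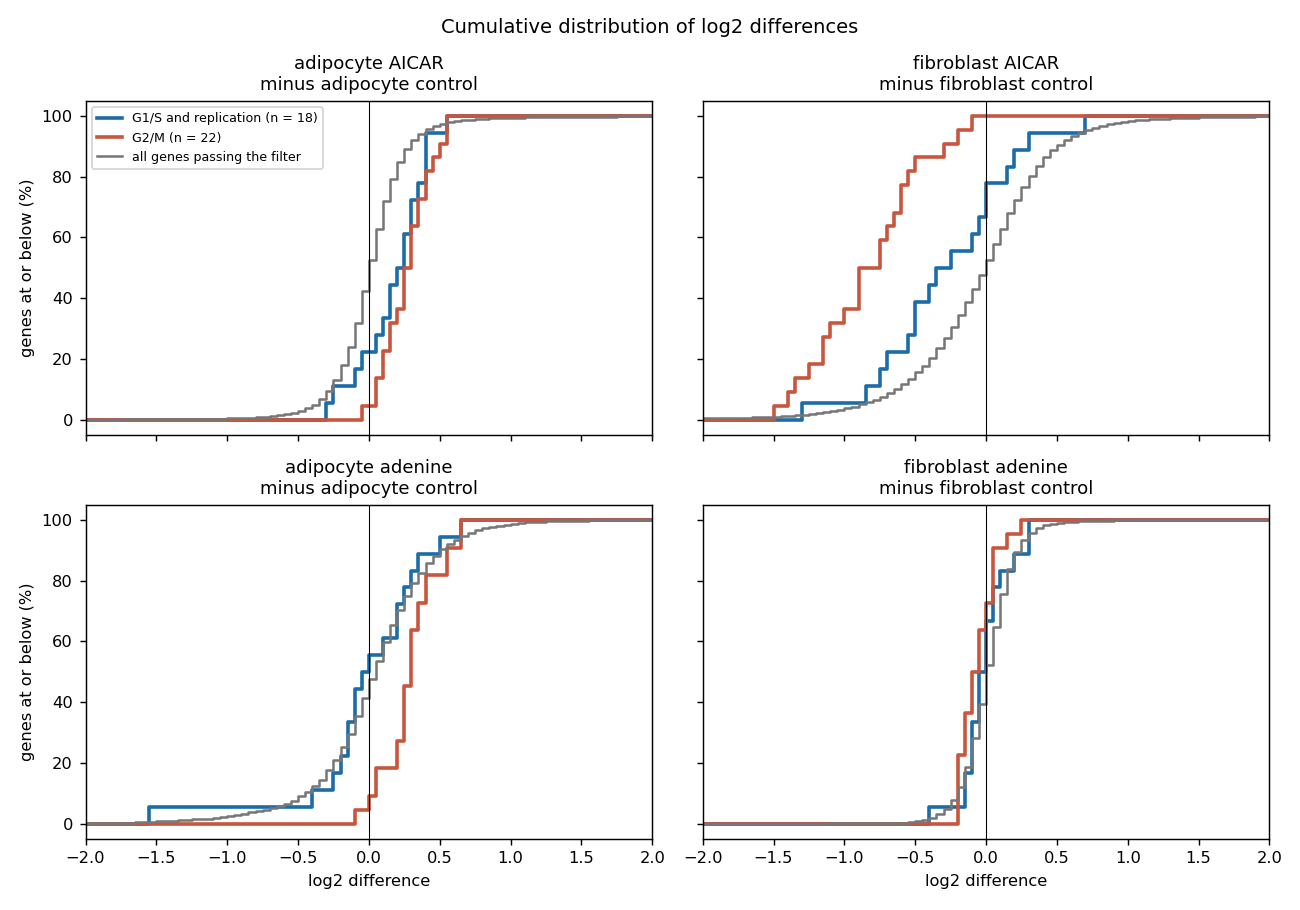
Cumulative share of genes (percent) at or below each log2 difference for AICAR minus control (upper panels) and adenine minus control (lower panels), in adipocytes (left) and fibroblasts (right). Lines are the 18 G1/S and replication genes, the 22 G2/M genes and all 9969 genes passing the filter. The G2/M line lies left of all genes for AICAR in fibroblasts (median -0.85) and right of all genes in adipocytes with either compound (median 0.25).

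Set directly against each other at 0.5 mM, the compounds gave different fibroblast values. AICAR, a ribonucleoside, stood below adenine, a free base, for all 22 G2/M genes, with a median log2 difference of -0.77, against a median of -0.01 over all genes, of which 48.9% were above 0 and 51.1% below. At least 2-fold lower were 7 G2/M genes, led by Ccnb2 at -1.33 and Kif11 at -1.30, and 3.89% of all genes. Of the 18 G1/S and replication genes, 11 were lower and the median was -0.33. Ccnd1 (-1.12) and Rrm1 (-1.07) were at least 2-fold lower, and Cdt1 (1.10) was at least 2-fold higher, as were 1.59% of all genes. In adipocytes the G2/M genes differed little between the compounds, with a median of -0.04, which turned to 0.01 under quantile normalization, and 15 of 22 lower with AICAR, and 54.8% of all genes were below 0. The G1/S and replication genes had a median of 0.18 there, with 14 of 18 higher, and 45.2% of all genes were above 0. Ccnd1 was the 1 member at least 2-fold higher with AICAR than with adenine in adipocytes (1.30), against 2.21% of all genes, and none was at least 2-fold lower, against 1.21%. These are 2 pairs of arrays at 1 dose, and no interval of the difference can be given from single arrays.

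Cell cycle genes were higher in adipocytes than in fibroblasts, by an amount that differed between media. Between the controls, the G2/M median was 0.35, with 19 of 22 higher, and the G1/S and replication median was 0.22, with 14 of 18 higher. The median of all genes was 0.02, with 51.9% above 0 and 48.1% below. Top2a (1.24) and Rrm2 (1.05) were at least 2-fold higher, as were 2.88% of all genes, and Ccnd1 (-1.13) was at least 2-fold lower, as were 4.27%. With adenine the G2/M median was 0.68, with 21 of 22 higher and 4 at least 2-fold higher (Aurka, Bub1b, Top2a and Ttk), against 53.2% of all genes above 0, 46.8% below, and 6.75% at least 2-fold higher. The G1/S and replication median with adenine was 0.22, with 13 of 18 higher, and Rrm2 (1.20) and Ccne2 (1.03) were at least 2-fold higher. Ccnd1 (-2.50) was the 1 member at least 2-fold lower in adipocytes, as were 8.47% of all genes. With AICAR the G2/M median was 1.39, between 0.57 for Tpx2 and 2.47 for Top2a, with all 22 higher and 18 of them at least 2-fold, against 50.2% of all genes above 0, 49.8% below, and 5.93% at least 2-fold higher. The G1/S and replication median with AICAR was 0.42, with 6 of 18 at least 2-fold higher: Ccne1, Ccne2, Mcm5, Mcm7, Rrm1 and Rrm2. None was at least 2-fold lower, against 4.6% of all genes. The state difference was largest with AICAR, intermediate with adenine and smallest in the controls for 19 of 22 G2/M genes, 7 of 18 G1/S and replication genes and 18.6% of all genes. The fibroblast AICAR array, lowest for all 22 G2/M genes, enters this order. It also enters the state difference with AICAR and the fibroblast comparisons of AICAR with control and with adenine. These results are therefore not independent.

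**Figure D4:**
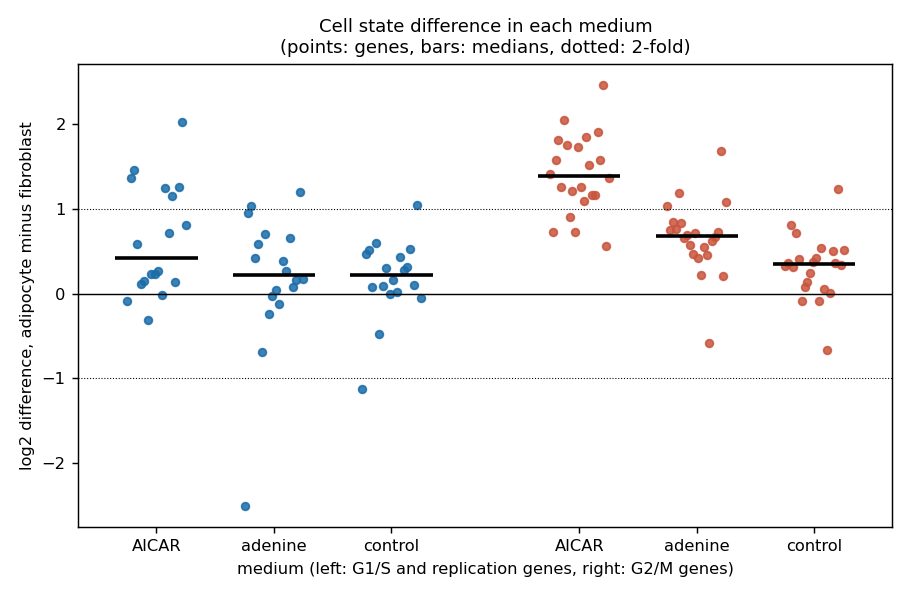
Log2 difference of adipocytes minus fibroblasts for each gene (points) in AICAR, adenine and control medium, with the G1/S and replication genes on the left and the G2/M genes on the right; bars are medians and dotted lines mark 2-fold. The G2/M medians are 1.39, 0.68 and 0.35, and the lowest point is Ccnd1 in adenine (-2.50).

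All 3 adipocyte values lay above all 3 fibroblast values for 19 of 22 G2/M genes, with Ccnb2, Kif23 and Foxm1 as the exceptions, for 8 of 18 G1/S and replication genes, and for 22.1% of all genes. The 8 were Ccne1, Ccne2, Cdk2, Cdc6, Mcm5, Mcm6, Mcm7 and Rrm2. Without the AICAR arrays the counts were 19 of 22 and 10 of 18, against 35.7% of all genes, a looser rule of 2 against 2 values that a gene separated over all 3 media always meets. In the additive limma model, 4 of 21 G2/M genes and 2 of 17 G1/S and replication genes that passed the filter rose in adipocytes at a Benjamini-Hochberg adjusted p under 0.05, against 5.22% of all genes. Top2a rose by 1.79 ± 0.25 (SE, 6 arrays) with a limma adjusted p of 0.0172, and Rrm2 by 1.43 ± 0.23 with a limma adjusted p of 0.0228. The second, dimmer Top2a probe set did not separate the states, with 8.41 in control adipocytes and 8.44 in control fibroblasts. Bub1b rose by 1.06 ± 0.17 (limma adjusted p of 0.0233), Birc5 by 1.08 ± 0.20 (0.0316), Ttk by 0.99 ± 0.20 (0.0378) and Ccne1 by 0.93 ± 0.20 (0.0463). Ccnd1 had a coefficient of -1.24 ± 0.44 and did not pass (limma adjusted p of 0.133), and no member fell, against 5.37% of all genes. No member passed for adenine or AICAR, nor did any of the 9969 genes in limma with Benjamini-Hochberg adjustment. At an unadjusted p under 0.05 the model held 27 genes higher and 35 lower for adenine, and 104 higher and 122 lower for AICAR. For each compound this is fewer of the 9969 genes than that threshold would give if nothing differed. These genes are therefore not read as hits. Without the control arrays limma called no member and 0 of the 9969 genes higher, with 1143 higher at an unadjusted p under 0.05. Without the adenine arrays it called 2 G2/M genes and 1 G1/S and replication gene higher, and without the AICAR arrays 3 and 1 higher, with 1 G1/S and replication gene lower. The shares of all genes called without the adenine or the AICAR arrays are not given here, so these member counts have no base rate beside them. The model assumes that a compound acts alike in both states, and its error is the departure from that assumption and not the spread between cultures.

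Cyclin-dependent kinase inhibitors were read beside the cyclins. Cdkn1b, or p27, which restrains Cdk2 with cyclin E, was at 8.40 in adipocytes with AICAR, 8.25 with adenine and 8.88 in the control, and at 9.09, 9.06 and 9.03 in fibroblasts. It was flat across the fibroblast media, and all 3 adipocyte values lay below all 3 fibroblast values, as for 19.9% of all genes. Its second, dimmer probe set also put adipocytes below fibroblasts, but gave 0.17 for adenine and 0.08 for AICAR against control in adipocytes, where the one used gave -0.64 and -0.48. Cdkn2c, or p18, an inhibitor of Cdk4 and Cdk6, was 8.92, 9.57 and 9.35 in adipocytes with AICAR, adenine and no compound, and 6.65 with AICAR and 8.10 with adenine in fibroblasts. It rose in adipocytes by 1.70 ± 0.22 (limma adjusted p of 0.0149). In fibroblasts Cdkn2c was low along with the mitotic genes, with -1.36 for AICAR minus control. Cdkn2b, or p15, was lower with adenine in adipocytes, at 7.88, against 8.87 with AICAR, and differed from the control there by -1.13. Myc, a growth-promoting transcription factor, stood at 9.80 in fibroblasts with AICAR, 7.58 with adenine and 8.06 in the control, opposite in direction to Ccnd1 on the same array.

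**Figure D5:**
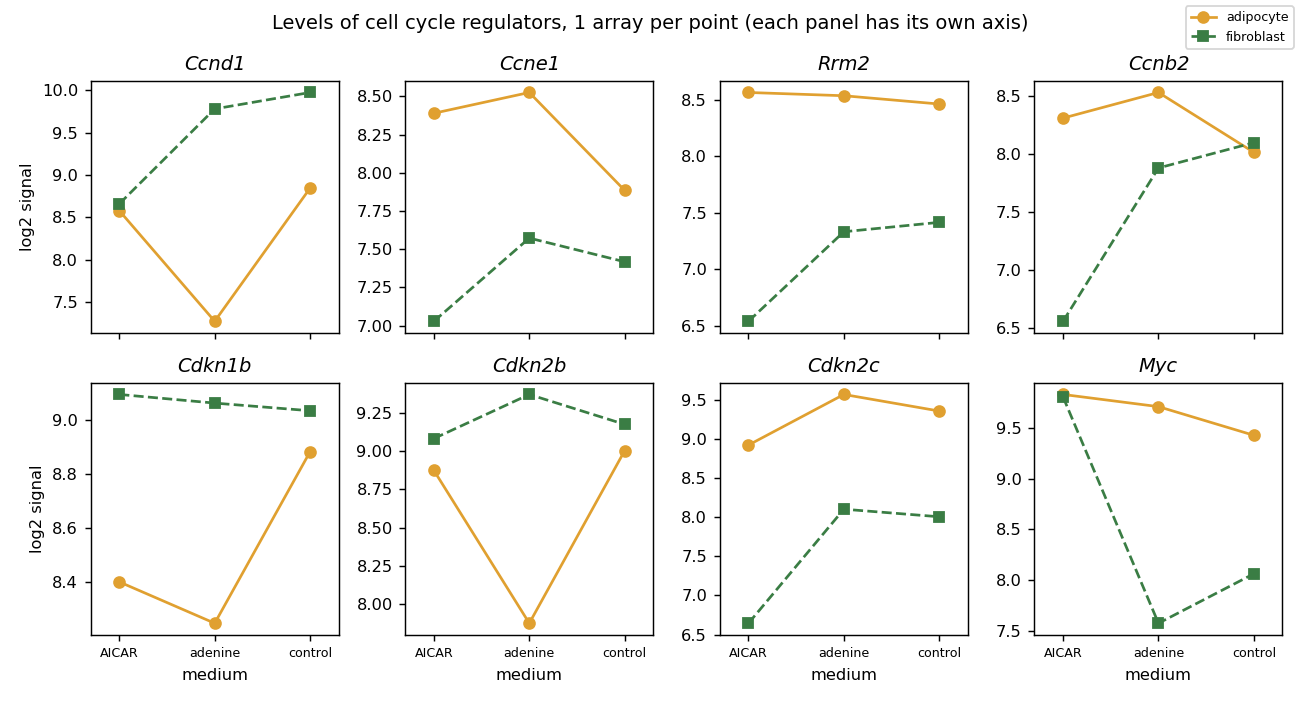
Log2 signal of 8 cell cycle regulators in AICAR, adenine and control medium, in adipocytes (circles, full lines) and fibroblasts (squares, broken lines), with 1 array per point and an axis of its own in each panel. Ccnd1 has its lowest point in adipocytes with adenine (7.27), Ccnb2 and Rrm2 have theirs in fibroblasts with AICAR (6.56 and 6.54), and Myc is 9.80 there.

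Further genes of the same pathways were counted from lists that do not hold the members. In fibroblasts with AICAR, 56 of 59 other mitosis genes were lower than control, with a median log2 difference of -0.63 and 8 at least 2-fold lower, against 52.5% and 3.69% of all genes. The lowest were Cenpk (-1.44) and Nuf2 (-1.40), both kinetochore genes, and Kif15 (-1.28), a spindle motor, and the highest was Melk (0.22). Of 44 other replication genes, 33 were lower, with a median of -0.35, and Pole2 (-1.48) and Pola1 (-1.23), subunits of DNA polymerases, were at least 2-fold lower, against the same shares of all genes. In adipocytes with AICAR the medians were 0.32 for mitosis (55 of 59 higher) and 0.16 for replication (38 of 44 higher), against 47.4% of all genes above 0. With adenine in adipocytes they were 0.30 for mitosis (55 of 59 higher) and 0.08 for replication (25 of 44 higher), against 52.5% of all genes above 0, to which the replication share was close. With adenine in fibroblasts they were -0.09 for mitosis (18 of 59 higher) and -0.11 for replication (10 of 44 higher), against 47.8% of all genes above 0.

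Other G1 regulators and inhibitors had no common direction in AICAR fibroblasts, with 15 of 28 higher and a median of 0.02, from Cdkn2c at the low end to Wee1 (0.81), a kinase that restrains Cdk1, and Myc (1.74). The p53 targets likewise split, with 12 of 20 higher and a median of 0.07, where 47.5% of all genes were above 0, and the lowest were Sesn2 (-1.87) and Eda2r (-1.02). With adenine in adipocytes, the G1 regulator median was 0.14, with Lin9, a MuvB subunit, and Rb1 (0.99), the retinoblastoma gene, at the high end and Cdkn2b (-1.13) at the low end. Between the states, limma with Benjamini-Hochberg adjustment called 6 of 54 other mitosis genes, 3 of 39 other replication genes and 2 of 25 G1 regulators higher in adipocytes, and none of them lower, against 5.22% of all genes called higher. These were Ncapg2, Hmmr, Cenpa, Cdca2, Cdca3 and Nek2 among the mitosis genes, Cdc45, Tk1 and Brca1 among the replication genes, and Cdkn2c and the antiproliferative gene Tob1 among the regulators. The same model called 1 of 17 p53 targets higher, Trp53inp1, and 3 lower: Fas, Plk2 (-1.85 ± 0.34, adjusted p of 0.0305) and the growth arrest gene Gadd45a (-1.13 ± 0.15, adjusted p of 0.0157). Of all genes, 5.22% were called higher and 5.37% lower. The shares of replication genes, G1 regulators and p53 targets called higher lay near that of all genes.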

How the data were processed

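Total RNA was measured on Affymetrix arrays, 1 array for each of 6 conditions. The authors deposited log2 expression values for 35556 probe sets, made with Transcriptome Analysis Console 1.0.0.234 on build mm10, per the submitters' processing notes. How background was corrected, arrays were normalized and probes were summarised is not given in the sources used here, so the log2 values were used as deposited. Signals near the dim end understate fold differences. No depth applies to arrays, and their number limits the precision.

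In the platform annotation, 21789 probe sets had 1 symbol, 1621 had several and 12146 had none. All 41 members matched a RefSeq gene by Entrez ID. Groups came from the labels. For 9 comparisons the values of 2 arrays were subtracted, with a threshold of 2-fold and no test. An additive model, state plus medium, was fitted with limma 3.58.1 in R 4.3.3 to the 9969 genes passing the filter, with 2 residual and 3.64 prior degrees of freedom, and its p-values were Benjamini-Hochberg adjusted, with a threshold of 0.05. Tables were made with Python 3.11.15.

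The members and the lists (other replication genes, other mitosis genes, G1 regulators, p53 targets, reference genes, and adipocyte, fibroblast, leukocyte, endothelial and epithelial markers) were chosen with earlier results of these data known. Genes named are the measured members and up to 3 of the highest and lowest of each other list; Cd68, Ptprc, Adgre1, Gadd45a and the other genes called by the model were named after their values were seen. Promoter letters were read from RefSeq GRCm38.p6. Alternatives changed the normalization, the filter, the probe set choice, the fold threshold and the model's arrays.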

Additional observations from a re-analysis of the deposited data

Results flagged for a closer look

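The direction of the AICAR difference was opposite in the cell states for both groups of genes. The median of the G2/M genes, AICAR minus control, was 0.25 in adipocytes and -0.85 in fibroblasts, 1.10 apart on the log2 scale. The median of the G1/S and replication genes was 0.18 in adipocytes and -0.34 in fibroblasts, 0.52 apart. With adenine the G2/M median was 0.25 in adipocytes and -0.10 in fibroblasts, 0.35 apart. Of single members, Kif20a and Mad2l1 were at least 0.5 from control in both states and in opposite directions. Kif20a stood at 0.54 in adipocytes and -0.93 in fibroblasts, 1.47 apart, and Mad2l1 at 0.53 in adipocytes and -0.62 in fibroblasts, 1.15 apart. Each of these rests on 1 array per condition, and the difference was not tested. The AICAR items all use the same fibroblast AICAR array and are not independent.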

How the results depend on the processing

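Medians were compared with a tolerance of 0.1 on the log2 scale and counts with a tolerance of 1.5 times. Of the medians, 2 near 0 turned sign within that tolerance: the G1/S and replication median for adenine against control in adipocytes was 0.02 under median centring, where it was -0.05 as deposited, and the G2/M median for AICAR against adenine in adipocytes was 0.01 under quantile normalization, where it was -0.04. No other median turned sign under the alternatives run. In all, 101 medians and 230 counts of single-array differences and 84 counts of the limma model stayed within tolerance, and 7, 22 and 8 did not. Quantile normalization moved none beyond tolerance, and dropping the filter moved no limma count. Dropping the filter could not change the medians and counts of single-array differences, which use all measured members. Its 18 medians and 36 counts are among those within tolerance and were fixed in advance. The filter at the 75th percentile, which keeps fewer members, moved the G1/S and replication median to 0.12 for the states with adenine, 0.19 for the states with AICAR, -0.46 for AICAR against control and -0.47 for AICAR against adenine in fibroblasts. It moved the G2/M median to 1.67 for the states with AICAR and to -0.96 for AICAR in fibroblasts. The G2/M genes it kept were Ccna2, Ccnb2, Top2a, Mki67, Plk1, Mad2l1, Kif20a and Tpx2, so smaller counts do not mean smaller shares. Of these genes, 7 were at least 2-fold higher between the states with AICAR, and 1 was higher between the states with adenine. In fibroblasts, 4 were at least 2-fold lower with AICAR than control and 3 lower with AICAR than adenine. Of the G1/S and replication genes the 75th percentile filter left 1 higher between the states with adenine and 0 higher with AICAR than adenine in fibroblasts. Ccne2 and Cdt1, the genes lost from these counts, had means of 5.84 and 7.47, under its floor of 7.69. Counting only members that passed the median filter, chosen after seeing the data, moved the G1/S and replication median to 0.26 for the states with AICAR and left 1 gene at least 2-fold higher for the states with adenine. Between the control arrays, median centring left 0 G1/S and replication genes at least 2-fold higher, and the mean of all probe sets left 0 G2/M genes, since both Top2a probe sets were then averaged. At a threshold of 1.5-fold, AICAR against control in fibroblasts held 17 G2/M and 5 G1/S and replication genes lower and 1 higher, and AICAR against adenine held 14 and 5 lower. At that threshold, the states differed in the controls by 3 G2/M and 2 G1/S and replication genes higher and 1 G2/M gene lower, and with adenine by 14 and 5 higher and 2 G1/S and replication genes lower. Adenine in adipocytes held 2 G2/M genes and 1 G1/S and replication gene higher at 1.5-fold. Shares of all genes were not counted at 1.5-fold or under the 75th percentile filter. The single-array counts of members under those settings therefore have no base rate beside them. In the limma model of state, the 75th percentile filter left 1 G2/M gene and median centring, chosen after seeing the data, 1 G1/S and replication gene. Bub1b, Birc5 and Ttk, called in the main fit, had mean log2 signals of 6.96, 6.51 and 6.29. These lie under the 75th percentile floor of 7.69, so the loss of these genes was fixed in advance. Leaving out each medium in turn left 0 to 1 G1/S and replication genes and 0 to 3 G2/M genes higher and 0 to 1 G1/S and replication genes lower. The shares of all genes called in these alternative fits are not given here, apart from the fit without the control arrays. Without the control arrays limma called 0 of the 9969 genes higher, with 1143 higher at an unadjusted p under 0.05. Top2a, Rrm2, Bub1b, Birc5, Ttk and Ccne1 were thus not called in that fit. Each fit that leaves out a medium has fewer arrays and residual degrees of freedom than the full fit. A part of the control arrays in the lost calls cannot be told apart from that. For AICAR and adenine the limma count of members stayed at 0 under each alternative run. The model of state is blocked by medium, and no pairing by replicate number could be tried, since each condition has 1 array and the labels number no replicates. Signal over background was not used, so differences of dim genes such as Cdc25c and Ccne2 are the least certain.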
